A study of Rattus norvegicus with 9 samples.

Results

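The genes examined were 10 named genes of the YAP and TAZ pathway in rat aortic smooth muscle cells (RASMC): the coactivators *Yap1* and *Wwtr1* (the gene of TAZ), the DNA-binding partner *Tead1*, the inhibitory kinases *Lats1* and *Lats2*, the regulators *Ajuba* and *Amotl2*, and the target genes *Ccn1*, *Ccn2* and *Ankrd1*. They were chosen by name, and each was read from a probe set annotated with that symbol alone. Of the 10 genes, 9 had such a probe set, each of them exactly 1, among 14324 genes measured in this way. *Lats1* had none and was not analysed here. The study weighed the oxygen sensor HIF-1α against signalling by intracellular Na+ and K+ in the response of these cells to hypoxia and glucose deprivation. Its arrays covered a part of this, inhibition of the Na+,K+-ATPase. The pump was inhibited either by ouabain, which binds it, or by removal of extracellular K+, the ion it carries inward. The hypoxia experiments are not covered here. Expression was read on 9 Affymetrix arrays (Rat Gene 1.0 ST), 3 per group, from cells kept for 6 hr in control DMEM, in DMEM with 3 mM ouabain (the concentration in the sample labels; another unit appears elsewhere in the study's text) or in K+-free DMEM. All groups were primary RASMC from Lonza, below the tenth passage, made quiescent in low serum for a day and washed in K+-free DMEM before treatment, and the labels name no genetic change. The age, sex and number of animals behind this commercial culture are unknown here. The 3 arrays of a group were 3 experiments with controls and treatments run in parallel, so p-values measure the spread between experiments on such cultures.

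In the Hippo pathway, the kinases MST1 and MST2 with the scaffold SAV1 activate LATS1 and LATS2 with their MOB1 cofactors, and the LATS kinases phosphorylate YAP and TAZ and hold them in the cytoplasm. Unphosphorylated YAP and TAZ enter the nucleus and, bound to TEAD proteins, drive genes such as *Ccn1*, *Ccn2* and *Ankrd1*. In smooth muscle and other adherent cells the coactivators are known as sensors of cell shape, actin tension and stiffness, and the LATS kinases and angiomotins are themselves among their targets, which closes a negative feedback loop. Their activity is set largely by phosphorylation and location, neither of which an array measures.

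Values are log2 signals, so that a difference of 1 is a doubling. A gene was called higher or lower where the Benjamini-Hochberg adjusted p of limma's moderated test, over 27342 probe sets, was under 0.05 and the fold exceeded 1.2. The same 3 control arrays served both treatments. Array medians lay between 6.76 and 6.80, and no pair of arrays held identical values. With 3 arrays against 3, an exact permutation test cannot go below p = 0.1. The smooth muscle label was checked against 8 markers: the 7 that were measured, among them *Tagln*, *Myh11* and *Myocd*, lay between 8.06 and 13.63 on all arrays, while *Acta2* had no single-symbol probe set. The 3 measured endothelial markers (*Cdh5*, *Tek* and *Emcn*) lay between 5.57 and 6.03, below the array medians. Other lists were not uniformly low: the fibroblast markers *Lum* (12.75 to 13.09) and *Pdgfra* (9.20 to 10.65) and the macrophage marker *Cd14* (7.82 to 9.37) lay above the medians on all arrays. The fibroblast markers *Dpt* (5.05 to 5.37), *Dcn* (5.67 to 6.05) and *Pi16* (5.76 to 5.98) lay below the medians on all arrays. *Scara5* (6.60 to 7.09) lay on either side of them. The macrophage markers *Csf1r*, *Ptprc*, *Adgre1* and *Itgam* also lay below the medians.

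Ouabain and K+-free medium each raised 6 of the 9 measured genes and lowered 2. With ouabain *Yap1*, *Wwtr1*, *Tead1*, *Lats2*, *Amotl2* and *Ccn1* rose and *Ccn2* and *Ankrd1* fell, against 15.8% of all probe sets called higher and 16.8% called lower, and the same genes were called in the same directions in K+-free medium, where 16.1% of all probe sets were called higher and 17.9% lower. *Ajuba* was not called in either. The median difference of the 9 genes was 0.37 with ouabain and 0.33 in K+-free medium, beside medians of 0.07 and 0.06 over all probe sets. Between the treatments, 3 genes (*Ankrd1*, *Amotl2* and *Lats2*) stood higher without K+ than with ouabain and 0 stood lower, where 8.45% and 7.97% of all probe sets were called, and 6 were not called.

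**Figure D1:**
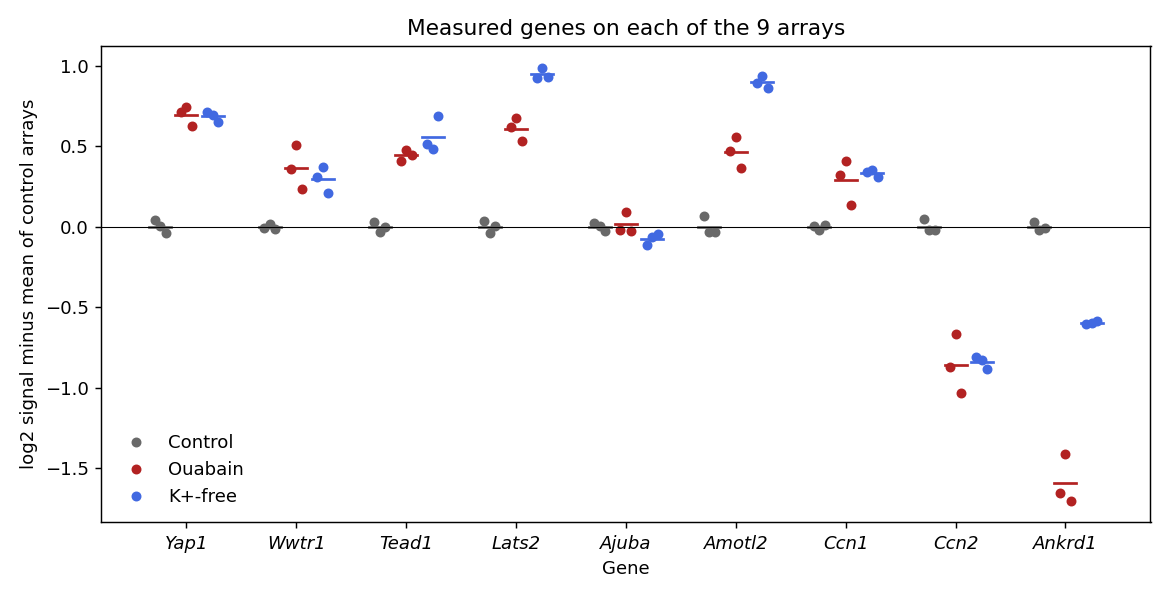
Log2 signal of the 9 measured genes on each array, minus the mean of the 3 control arrays of that gene; points are arrays, short lines are group means, grey is control, red is ouabain and blue is K+-free medium. Control points stay within 0.07 of 0, the red and blue points of 6 genes lie above them, those of *Ccn2* and *Ankrd1* lie below, and *Ajuba* stays near 0.

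The coactivator transcripts rose under both treatments. *Yap1* (probe set 10914811) read 10.95, 10.91 and 10.87 on the control arrays, 11.62, 11.65 and 11.53 with ouabain and 11.62, 11.60 and 11.56 in K+-free medium. Every treated array lay above every control array, and the treatments overlapped each other. The rise was 1.62-fold with ouabain (log2 difference 0.69, SE 0.0522, adjusted p = 8.9e-07) and 1.61-fold in K+-free medium (0.69, SE 0.0522, adjusted p = 8.3e-07). The difference between the treatments was -0.01, with a 95% interval of -0.12 to 0.11. *Wwtr1* (probe set 10823284), which encodes the paralogous coactivator TAZ, read 11.75, 11.77 and 11.74 in controls, 12.11, 12.26 and 11.99 with ouabain and 12.07, 12.12 and 11.96 in K+-free medium. Here too no treated array reached down to the controls, but the ouabain arrays spread over a wider range than the rise in the lowest of them. *Wwtr1* rose 1.29-fold with ouabain (0.37, SE 0.0712, adjusted p = 0.0015) and 1.23-fold in K+-free medium (0.30, SE 0.0712, adjusted p = 0.0056), and both calls ended when the arrays were centred on *B2m*, the gene of beta-2 microglobulin, where the differences were 0.21 and 0.14. In K+-free medium the *Wwtr1* call also ended without the second K+-free array (0.26).

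TEAD proteins bring YAP and TAZ to DNA. *Tead1* (probe set 10710006) read 10.40, 10.34 and 10.37 in controls, 10.78, 10.85 and 10.82 with ouabain and 10.88, 10.85 and 11.06 in K+-free medium. All 6 treated arrays lay above the controls, with the third K+-free array the highest. *Tead1* rose 1.36-fold with ouabain (0.44, SE 0.0607, adjusted p = 0.00011; 0.29 and still called when centred on *B2m*) and 1.47-fold in K+-free medium (0.56, SE 0.0607, adjusted p = 1.5e-05), and the difference between the treatments, 0.12 with a 95% interval of -0.02 to 0.25, was not called.

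Of the inhibitory kinases that phosphorylate YAP and TAZ, *Lats2* was measured. *Lats2* (probe set 10784164) read 11.60, 11.52 and 11.57 in controls, 12.18, 12.24 and 12.10 with ouabain and 12.49, 12.55 and 12.49 in K+-free medium. The 3 groups formed separate steps without overlap. The rise was 1.53-fold with ouabain (0.61, SE 0.0535, adjusted p = 3.0e-06) and 1.93-fold in K+-free medium (0.95, SE 0.0535, adjusted p = 8.0e-08), and K+-free medium exceeded ouabain by 1.27-fold (0.34, SE 0.0535, adjusted p = 0.00078).

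*Ajuba* encodes a LIM domain protein that binds LATS kinases and limits their activity. Its signals (probe set 10783583) were 11.42, 11.40 and 11.37 in controls, 11.37, 11.48 and 11.36 with ouabain and 11.28, 11.33 and 11.35 in K+-free medium. The ouabain and control arrays overlapped, and the K+-free arrays lay just below the controls. Neither difference was called: 0.01 with ouabain (95% interval -0.10 to 0.13) and -0.08 in K+-free medium (95% interval -0.19 to 0.04). On the deposited values these intervals lie within a fold of 1.2 in either direction. Centred on *B2m*, the difference in K+-free medium was -0.23 (adjusted p = 0.0045), still under the fold limit.

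*Amotl2* belongs to the angiomotin family, whose proteins bind YAP and TAZ and retain them at junctions and actin, and it is also a known target of the coactivators. It read (probe set 10912584) 11.26, 11.16 and 11.16 in controls, 11.66, 11.75 and 11.56 with ouabain and 12.08, 12.13 and 12.06 in K+-free medium. As with *Lats2*, controls were lowest, ouabain arrays intermediate and K+-free arrays highest, without overlap. *Amotl2* rose 1.38-fold with ouabain (0.46, SE 0.0609, adjusted p = 7.6e-05) and 1.86-fold in K+-free medium (0.90, SE 0.0609, adjusted p = 3.3e-07), and the difference between the treatments was 0.43 (SE 0.0609, adjusted p = 0.00036).

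The 3 classical targets did not move as a group: *Ccn1* rose modestly while *Ccn2* and *Ankrd1* fell. The sequences before the starts of *Ccn1* and *Ccn2*, a pair of related genes whose transcripts moved in opposite directions, are given for the bases that TEAD proteins are known to bind. They are the 250 bases before each transcript's start from RefSeq (build GRCr8), 5′ to 3′ in the direction of the gene, with matches to GGAATG on either strand in capitals (CATTCC is the same motif read from the other strand).
*Ccn1* (chr2:237225690-237225939, minus strand): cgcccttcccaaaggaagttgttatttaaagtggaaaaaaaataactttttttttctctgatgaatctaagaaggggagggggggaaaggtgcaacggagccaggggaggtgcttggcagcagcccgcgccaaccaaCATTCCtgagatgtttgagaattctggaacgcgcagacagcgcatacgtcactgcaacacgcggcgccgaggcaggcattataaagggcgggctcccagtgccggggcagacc
*Ccn2* (chr1:22624615-22624864, minus strand): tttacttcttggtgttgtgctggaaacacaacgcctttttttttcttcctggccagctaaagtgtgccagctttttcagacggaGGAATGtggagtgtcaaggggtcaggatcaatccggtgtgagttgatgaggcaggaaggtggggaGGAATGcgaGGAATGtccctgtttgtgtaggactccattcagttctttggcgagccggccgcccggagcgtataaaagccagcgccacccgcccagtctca

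Of the 9 measured genes, 6 had such an entry, and 5 of these held the motif. *Ccn2* held 3 matches, whose first bases lay 166, 101 and 92 bases before the start, all on the strand of the gene. *Ccn1* held 1, at 113 bases. Among 33469 promoters of the same length in the table, 12.1% held at least 1 match and 0.0807% held 3 or more. *Amotl2*, *Yap1* and *Ajuba* held 1 match each, at 76, 116 and 236 bases, and the 30 bases around each are shown because their transcripts rose in the case of *Amotl2* and *Yap1* and were not called in that of *Ajuba*. A match describes the sequence alone, and it was present upstream of genes that rose, fell and were not called.
*Amotl2* (chr8:112182538-112182567, plus strand): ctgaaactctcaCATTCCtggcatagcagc
*Yap1* (chr8:13451536-13451565, minus strand): agggagtctgcaGGAATGtaacgacgcgca
*Ajuba* (chr15:32000261-32000290, minus strand): tgcccctccgcaCATTCCaactgtaaacaa
*Wwtr1* and the unmeasured *Lats1* had an entry without the motif, and *Ankrd1*, *Lats2* and *Tead1* had no entry. The motif TGANTCA of AP-1 (6.34% of all promoters) and the CArG box of serum response factor (1.5%), searched on both strands in the same window, matched 0 of the 7 entries, which says only that these letters are not in those bases.

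**Figure D2:**
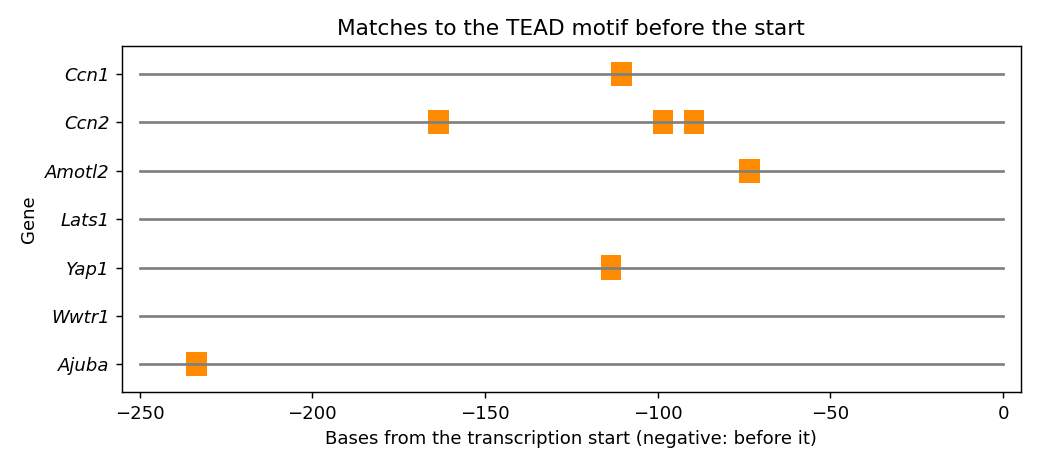
Positions of GGAATG, on either strand, in the 250 bases before the start of the 7 named genes with a promoter entry; the x axis is the distance from the start in bases, grey lines are the windows and orange boxes the matches. *Ccn2* has 3 matches, *Ccn1*, *Amotl2*, *Yap1* and *Ajuba* have 1, and *Lats1* and *Wwtr1* have none.

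*Ccn1*, formerly *Cyr61*, encodes a secreted matricellular protein that binds integrins. It read (probe set 10827231) 12.91, 12.89 and 12.91 in controls, 13.23, 13.31 and 13.04 with ouabain and 13.24, 13.26 and 13.21 in K+-free medium. All treated arrays exceeded all controls, although the third ouabain array by a small margin. The rise was 1.22-fold with ouabain (0.29, SE 0.0668, adjusted p = 0.0046) and 1.26-fold in K+-free medium (0.33, SE 0.0668, adjusted p = 0.0017), close to the fold limit, and both calls ended when the arrays were centred on *B2m* (0.14 and 0.18). The ouabain call also ended without the second ouabain array, where the difference was 0.23.

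*Ccn2*, formerly *Ctgf*, encodes connective tissue growth factor, a close relative of CCN1 that promotes matrix production. It read (probe set 10717233) 13.09, 13.02 and 13.02 in controls, 12.17, 12.37 and 12.01 with ouabain and 12.23, 12.21 and 12.15 in K+-free medium. Every treated array lay below every control. *Ccn2* was 1.81-fold lower with ouabain (-0.86, SE 0.0803, adjusted p = 5.1e-06) and 1.79-fold lower in K+-free medium (-0.84, SE 0.0803, adjusted p = 5.4e-06). The treatments differed by 0.02, with a 95% interval of -0.16 to 0.19.

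*Ankrd1* encodes a stretch-responsive ankyrin repeat protein found at the sarcomere and in the nucleus of muscle cells. It read (probe set 10729834) 9.79, 9.74 and 9.75 in controls, 8.11, 8.34 and 8.06 with ouabain and 9.16, 9.16 and 9.18 in K+-free medium. The ouabain arrays were far below the others, and the K+-free arrays lay between without overlap. *Ankrd1* was 3.01-fold lower with ouabain (-1.59, SE 0.0705, adjusted p = 1.9e-08) and 1.51-fold lower in K+-free medium (-0.60, SE 0.0705, adjusted p = 3.1e-05). The signal in K+-free medium exceeded that in ouabain by 1.99-fold (0.99, SE 0.0705, adjusted p = 2.8e-06), the largest difference between the treatments among the 9 genes.

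**Figure D3:**
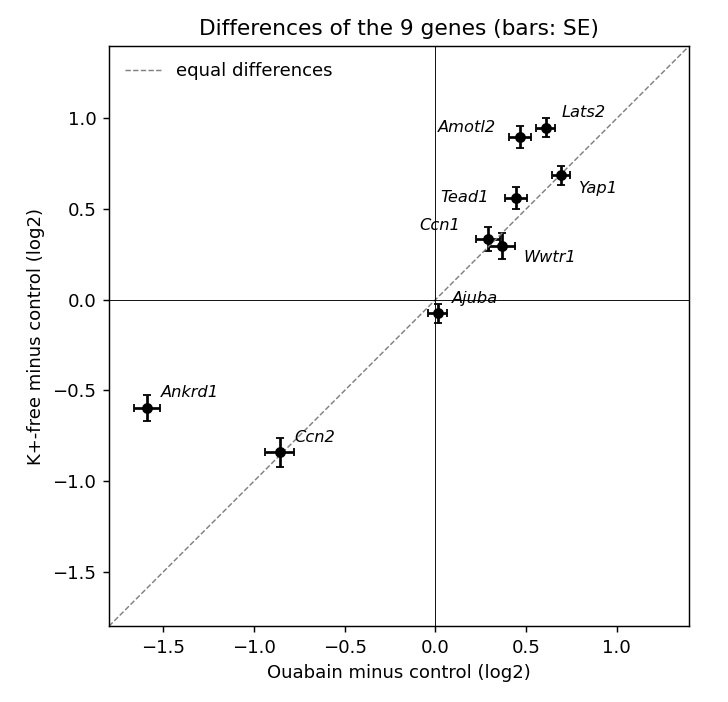
Log2 difference from control with ouabain (x axis) against that in K+-free medium (y axis) for the 9 genes; bars are standard errors and the dashed line marks equal differences. Both axes use the same 3 control arrays. *Ankrd1* at -1.59 and -0.60, *Amotl2* at 0.46 and 0.90 and *Lats2* at 0.61 and 0.95 lie above the line.

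**Figure D4:**
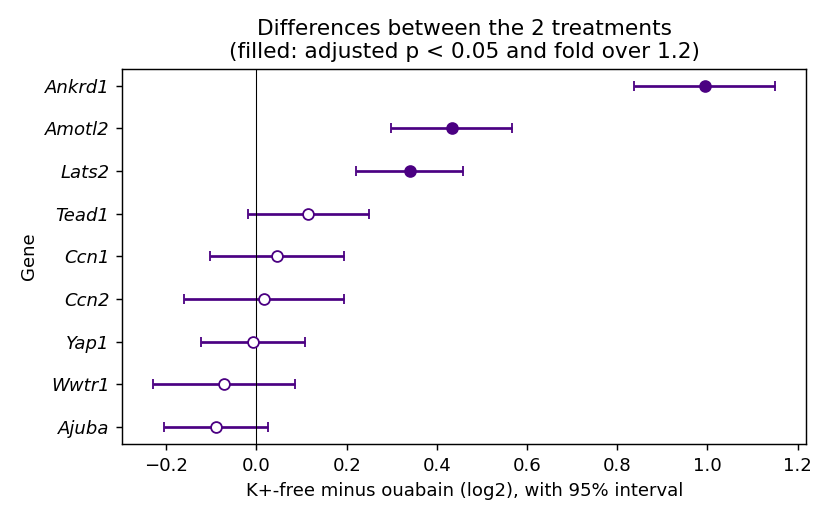
Log2 difference of K+-free medium minus ouabain for the 9 genes with 95% intervals; filled points were called. *Ankrd1* (0.99), *Amotl2* (0.43) and *Lats2* (0.34) are filled, and the intervals of the other 6 include 0.

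The ouabain arrays carried an offset shared by these genes. The second ouabain array lay above the mean of its group for 9 of 9 genes, by 0.10 on average, and the third for 0 of 9, by -0.10 on average, whereas over all probe sets the deviations were 0.007 and -0.004. A difference between a pair of genes on the same array does not carry an offset common to both genes, nor a centring of whole arrays, although repeated quantile normalization can still change it. Pairs chosen after their values were seen are described without a test. Relative to control, *Ccn1* minus *Ccn2* shifted by 1.15 ± 0.061 (SD, n = 3) with ouabain and by 1.18 ± 0.021 in K+-free medium. *Amotl2* minus *Ankrd1* shifted by 1.98 to 2.12 on the 3 ouabain arrays and by 1.45 to 1.54 on the 3 K+-free arrays. In both pairs all 6 treated arrays lay beyond the range of the controls. That follows from the separation of each gene from control on its own and is no added result.

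For each of the 3 classical targets, the 3 genes of the array with the most similar pattern were found by the Euclidean distance over the 9 arrays, after subtraction of each gene's control mean, among 14323 other genes. Nearest to *Ccn1* were *Chpf* (distance 0.10), *Ksr1* (0.11) and *Foxk1* (0.14). Nearest to *Ccn2* were *Bnip3* (0.18), *Myo1c* (0.20) and *Pi4ka* (0.20). Nearest to *Ankrd1* were *Mecr* (0.21), *Kctd18* (0.32) and *Dph6* (0.32). These also lay lower with ouabain than without K+, which follows from their choice by nearness to *Ankrd1* on the same arrays. *Mecr* differed from control by -1.55 with ouabain and by -0.64 in K+-free medium.

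Of 17 paralogs and TEAD cofactors, 11 were measured. With ouabain 3 rose and 2 fell, where 15.8% and 16.8% of all probe sets were called higher and lower, and without K+ 4 rose and 1 fell, beside 16.1% and 17.9%. The counts lower were near or under those shares, and the median differences were 0.00 and 0.12. *Tead2*, the TEAD family member typical of embryonic cells, read 9.62, 9.52 and 9.49 in controls, 8.36, 8.48 and 8.22 with ouabain and 8.06, 7.99 and 7.93 in K+-free medium. It fell in steps without overlap, opposite to *Tead1*. *Tead2* was 2.28-fold lower with ouabain (-1.19, SE 0.072, adjusted p = 1.6e-07) and 2.92-fold lower in K+-free medium (-1.55, SE 0.072, adjusted p = 2.1e-08). The shift of *Tead1* minus *Tead2* within arrays, a pair also chosen after its values were seen, was 1.64 ± 0.12 (SD, n = 3) with ouabain and 2.11 ± 0.17 in K+-free medium. *Tead3* was not called, with differences of 0.00 and 0.12.

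*Vgll4*, a cofactor that competes with YAP for TEAD proteins, rose 1.91-fold with ouabain (0.93, SE 0.0672, adjusted p = 6.2e-07) and 1.98-fold in K+-free medium (0.98, SE 0.0672, adjusted p = 3.6e-07), while *Vgll2* stayed between 5.11 and 5.35 on all arrays and was not called. *Ankrd2*, the muscle paralog of *Ankrd1*, read 6.11, 6.16 and 6.37 in controls, 7.60, 7.65 and 7.57 with ouabain and 7.07, 7.05 and 7.09 in K+-free medium. It rose 2.63-fold and 1.81-fold (1.39 and 0.85, SE 0.0682, adjusted p = 3.6e-08 and 1.2e-06) and was lower without K+ than with ouabain (-0.54, SE 0.0682, adjusted p = 0.00017). Its order of groups was thus the reverse of that of *Ankrd1*, which was lowest with ouabain. *Ankrd23* was not called, with differences of -0.03 and -0.01.

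Among the relatives of *Ccn1* and *Ccn2*, *Ccn3* did not differ detectably (-0.01 and 0.01, 95% intervals -0.14 to 0.12 and -0.12 to 0.15). *Ccn4* rose in K+-free medium (0.31, SE 0.0665, adjusted p = 0.0025), a call that ended on centring on *B2m* (0.16), and differed by -0.04 with ouabain; the treatments differed by 0.35 (SE 0.0665, adjusted p = 0.0025), a call that the methods' t-test did not make (adjusted p = 0.071, the highest over the alternatives, where the lowest was 0.00072). *Ccn5* fell by 0.38 on the log2 scale with ouabain (SE 0.0655, adjusted p = 0.00058), while its difference of -0.19 in K+-free medium was under the fold limit. *Limd1*, which like *Ajuba* encodes a LIM protein that binds LATS kinases, rose with ouabain (0.45, SE 0.0703, adjusted p = 0.00029) and in K+-free medium (0.29, SE 0.0703, adjusted p = 0.0054), the latter ending on centring on *B2m* (0.13) and without the third K+-free array (0.26). The related *Wtip* was not called (0.07 and 0.13).

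A list of 19 Hippo pathway kinases, cofactors and scaffolds, called the upstream list here, also held genes not upstream of *Lats2*, such as *Stk38*, *Stk38l* and *Ptpn14*. Of the 19 genes 17 were measured. Ouabain raised 8 and lowered 4 and K+-free medium raised 5 and lowered 6, with median differences of 0.25 and 0.02. Over all probe sets 15.8% were called higher and 16.8% lower with ouabain, and 16.1% and 17.9% in K+-free medium. *Stk3*, which encodes the kinase MST2, read 10.74, 10.66 and 10.68 in controls, 9.93, 9.83 and 10.06 with ouabain and 10.10, 9.93 and 10.11 in K+-free medium. It was 1.69-fold and 1.57-fold lower (-0.76 and -0.65, SE 0.0708, adjusted p = 5.1e-06 and 1.6e-05). Its paralog *Stk4* (MST1), named after its values were seen, rose by 0.53 and 0.62 (SE 0.0534, adjusted p = 8.7e-06 and 2.2e-06).

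*Sav1*, the scaffold of the MST kinases, was lower by -0.65 and -0.84 (SE 0.0937, adjusted p = 0.00016 and 2.0e-05) on the probe set used. The mean of its 2 probe sets gave -0.34 and -0.43, so nearly all of the fall lay in that probe set and the other hardly changed. *Mob1b*, a cofactor of the LATS kinases, read 10.47, 10.56 and 10.55 in controls, 11.42, 11.43 and 11.48 with ouabain and 11.60, 11.64 and 11.77 in K+-free medium, the largest rise of the list (1.89-fold and 2.21-fold, adjusted p = 2.2e-07 and 3.7e-08). *Taok2* and *Taok3* encode kinases that activate MST1 and MST2. *Taok2* fell under both treatments (-0.71 and -0.86, SE 0.0466, adjusted p = 3.0e-07 and 5.8e-08), as did *Taok3* (-0.33 and -0.75, SE 0.0752, adjusted p = 0.0045 and 8.4e-06), but the *Taok3* call with ouabain ended under repeated quantile normalization (-0.11) and without the first control array (-0.25).

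*Nf2*, which encodes the membrane scaffold merlin, separated the treatments. It read 9.50, 9.49 and 9.48 in controls, 9.36, 9.38 and 9.37 with ouabain and 8.71, 8.61 and 8.68 in K+-free medium. The K+-free arrays stood well below the rest. *Nf2* was 1.77-fold lower in K+-free medium than in control (-0.83, SE 0.0473, adjusted p = 8.9e-08) and lower than in ouabain by -0.71 (SE 0.0473, adjusted p = 1.8e-06), while the difference of -0.12 with ouabain was not called. Between the treatments 0 of the 17 genes were called higher and 4 lower in K+-free medium, beside 8.45% and 7.97% of all probe sets: *Nf2*, *Taok3* (-0.42, adjusted p = 0.0018) and, named after their values were seen, *Rassf1* (-0.53, adjusted p = 0.00023), which encodes a partner of the MST kinases, and *Stk38l* (-0.29, adjusted p = 0.011), which encodes a relative of the LATS kinases. Against control, *Rassf1* was called higher with ouabain (0.31, adjusted p = 0.0042) and was not called in K+-free medium (-0.22). *Stk38l* was also called higher with ouabain (0.31, adjusted p = 0.0035) and not called in K+-free medium (0.02). The other 2 genes that rose in K+-free medium beside *Stk4*, *Mob1b* and *Mob1a* (0.38) were *Wwc2* (0.48) and *Map4k4* (0.50), also named afterwards.

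Beyond the classical targets, 17 other genes known to respond to YAP and TAZ were listed, and 11 were measured. Ouabain raised 4 and lowered 1, K+-free medium raised 6 and lowered 1, and between the treatments 5 were higher in the K+-free group and 0 were lower. The shares of all probe sets called higher and lower were 15.8% and 16.8%, 16.1% and 17.9%, and 8.45% and 7.97%, so that the single gene lower in each treatment was under its share. The median differences were 0.20, 0.36 and 0.01. *F3*, which encodes tissue factor, the initiator of coagulation, read 9.70, 9.75 and 9.75 in controls, 11.51, 11.49 and 11.49 with ouabain and 12.19, 12.15 and 12.34 in K+-free medium. Its rise of 3.39-fold and 5.64-fold (1.76 and 2.49, SE 0.057, adjusted p = 3.1e-09 and 1.9e-10) was the largest of the list, and the treatments differed by 0.73 (SE 0.057, adjusted p = 5.6e-06). The study also printed *F3* among genes it chose on these arrays, so its rise is not independent evidence of a direction for the list.

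*Gadd45a*, a stress-induced gene of growth arrest and DNA damage, read 8.20, 7.94 and 8.07 in controls, 9.08, 9.26 and 9.18 with ouabain and 10.50, 10.49 and 10.42 in K+-free medium. It rose 2.15-fold and 5.28-fold (1.10 and 2.40, SE 0.0734, adjusted p = 3.4e-07 and 1.2e-09), and K+-free medium exceeded ouabain by 1.30 (adjusted p = 5.5e-07). *Nuak2*, an AMPK-related kinase, rose by 0.31 with ouabain (adjusted p = 0.00054), which on centring on *B2m* was 0.15 and no longer called, and more steeply without K+, by 0.99 (adjusted p = 4.4e-08), the treatments differing by 0.69 (adjusted p = 4.2e-06).

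*Axl*, a receptor tyrosine kinase, and *Asap1*, a regulator of Arf GTPases and focal adhesions, were called against control in K+-free medium alone, at 0.36 and 0.50 (adjusted p = 0.00067 and 5.9e-06), and the *Axl* call ended on centring on *B2m* (0.20). With ouabain *Axl* differed by -0.15 (adjusted p = 0.079) and *Asap1* by 0.20 (adjusted p = 0.0059), the latter under the fold limit. Both stood higher without K+ than with ouabain, by 0.50 and 0.30 (adjusted p = 0.00015 and 0.00091). *Ccdc80*, which encodes a matrix protein, was the gene that fell, by -0.64 with ouabain and -0.89 in K+-free medium (SE 0.0574, adjusted p = 3.7e-06 and 2.2e-07). *Igfbp3*, outside the rule for named genes, completed those that rose, at 0.43 and 0.44. *Ptpn14*, which stood in both the upstream and the target list, was not called in any comparison, with differences of 0.10, -0.12 and -0.22.

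**Figure D5:**
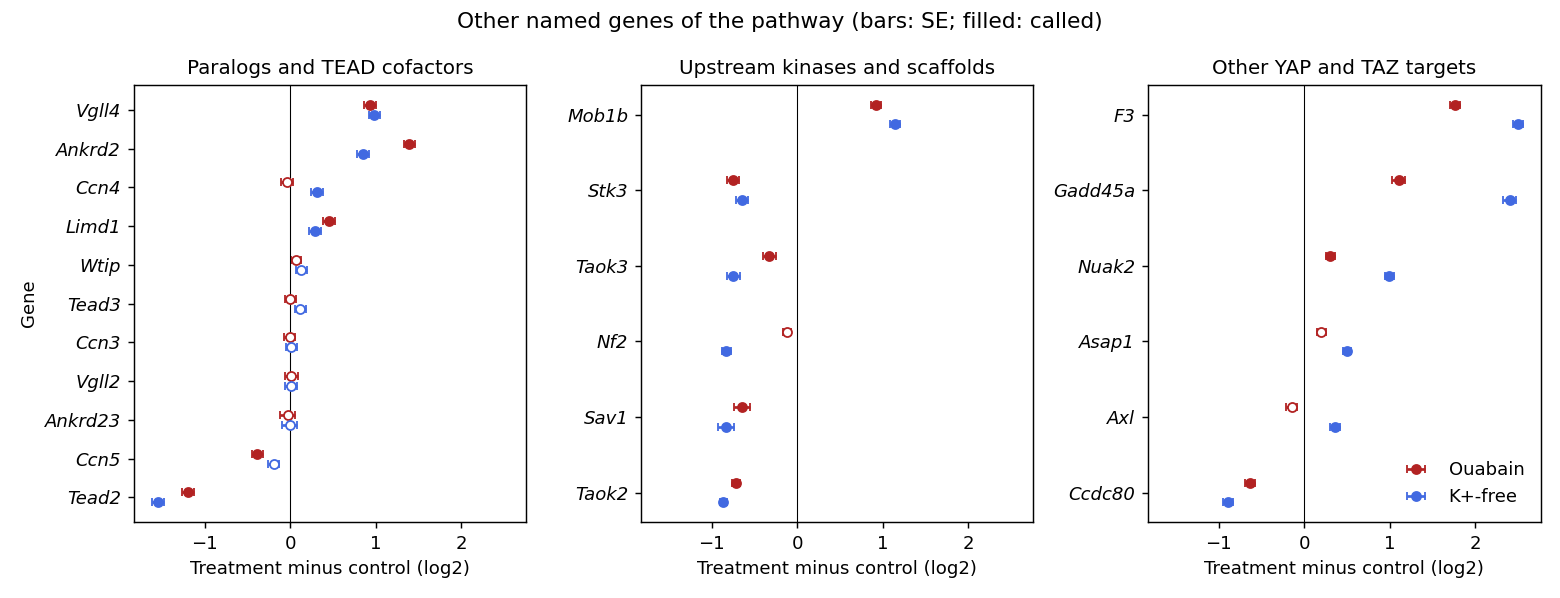
Log2 difference from control with ouabain (red) and in K+-free medium (blue) for the 11 measured paralogs and cofactors, 6 upstream genes and 6 other targets named by rule; bars are standard errors, and filled points were called. *Tead2* lies at -1.19 and -1.55, *Vgll4* at 0.93 and 0.98, *Nf2* at -0.12 and -0.83, and *F3* at 1.76 and 2.49.

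Counts of cell type markers stand beside 15.8% of all probe sets called higher and 16.8% lower with ouabain, and 16.1% and 17.9% in K+-free medium. Of the 7 smooth muscle markers 6 were lower with ouabain and 3 in K+-free medium, and their summed linear signal was 27521 to 28275 in controls, 21516 to 24032 with ouabain and 24384 to 24794 in K+-free medium. Of the 6 macrophage markers 3 (*Cd68*, *Cd14* and *Csf1r*) were higher under both treatments. The 6 summed to 499 to 554 in controls, 1018 to 1080 with ouabain and 668 to 773 in K+-free medium. The other 3, *Ptprc*, *Adgre1* and *Itgam*, were not called and lay between 5.27 and 5.82 on the log2 scale. Like *Csf1r*, at 5.65 to 6.34, they lay below the array medians. Of the 6 fibroblast markers 0 were higher and 1 (*Scara5*, -0.28) was lower with ouabain. In K+-free medium 2 were higher, *Pdgfra* (1.30) and *Lum* (0.29). The 6 fibroblast markers summed to 7765 to 7967 in controls, 8850 to 9313 with ouabain and 9938 to 10613 in K+-free medium. Most of each sum was *Lum*, at 12.75 to 13.09 on the log2 scale. Its difference with ouabain, 0.23, was under the fold limit. The 3 endothelial markers summed to 149 to 154 in controls, 169 to 172 with ouabain and 167 to 177 in K+-free medium, and 1 of them was higher under both treatments. The part of these shifts in the differences of *Ccn2*, *Ankrd1* and the other genes was not tested, and in bulk RNA fewer cells of a type and less RNA per cell cannot be told apart.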

How the data were processed

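The authors deposited log2 signals of 27342 probe sets per array, made by RMA according to the sample labels. Partek is listed beside it, no source used here gives a version of either, and a general section of the study's methods names other software. RMA sets the arrays to a common distribution, so a change shared by most genes is not seen. No column was left without a sample (0 columns). Probe sets were named through the platform annotation with current RefSeq symbols, and those with 1 symbol were used, the highest mean over the 9 arrays standing for a gene with several.

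limma 3.58.1 in R 4.3.3 fitted a mean per group over the 9 arrays with empirical Bayes moderation, on the deposited log2 values without further scaling. The 3 contrasts were each adjusted by Benjamini-Hochberg over all probe sets, and a call needed an adjusted p under 0.05 and a fold over 1.2. The number of arrays limits the precision. The fit was first run on simulated arrays with independent noise and few changed probe sets, which did not test shared offsets or a change of many genes.

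The genes and all lists were chosen with earlier results of these data known. Named were the 10 genes, all measured paralogs and cofactors, up to 6 genes each of the upstream and target lists with the largest called difference, and the 3 nearest genes of each classical target. Alternatives were repeated quantile normalization, centring on B2m or on array medians, leaving out the dimmest 0.25 of probe sets or those without 1 symbol, a replicate block, the 6 arrays of a comparison, trend and robust moderation, analysis of variance without moderation, the methods' t-test, other fold limits, averaging the probe sets of a gene, and omitting each array in turn. Promoters came from RefSeq (GRCr8). Python 3.11.15 searched the promoters and, with matplotlib 3.10.9, drew the figures.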

Additional observations from a re-analysis of the deposited data

How the results depend on the processing

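Of the 19 calls on the 9 genes, 10 kept direction and call under all 22 alternatives and 15 under the 21 other than the fold limit of 1.5, and 0 reversed; of 41 calls on the other named genes these numbers were 27, 34 and 0. Centring on *B2m*, which was higher by 0.15 and 0.16 as deposited, moved the median of all probe sets from 0.07 and 0.06 to -0.08 and -0.10, and the called probe sets to 2166 higher and 6223 lower with ouabain and 2375 and 7059 in K+-free medium. It ended the calls of *Ccn1* (0.14 and 0.18, adjusted p = 0.15 and 0.062, against ranges of 0.00037 to 0.15 and 0.00023 to 0.062 over all alternatives) and *Wwtr1* (0.21 and 0.14, adjusted p = 0.041 and 0.17, ranges 0.00028 to 0.041 and 0.0015 to 0.17), leaving 4 of the 9 genes higher in each treatment, and set *Tead1* with ouabain to 0.29 and *Limd1* to 0.30. It left 3 upstream genes higher with ouabain, 2 other targets lower with ouabain and 3 in K+-free medium, and 2 paralogs higher and 2 lower in K+-free medium. Repeated quantile normalization ended the *Wwtr1* call in K+-free medium (0.24), set *Limd1* there to 0.45, and gave 2 paralogs lower in K+-free medium. The methods' t-test ended the *Ccn1* call with ouabain (adjusted p = 0.062) and, between the treatments, those of *Ccn4* (0.071) and *Tead2* (0.080), leaving 0 paralogs higher and 1 lower. The uncalled *Ajuba* difference with ouabain turned to -0.058 under quantile normalization and -0.14 on *B2m*. In K+-free medium these scalings gave -0.16 and -0.23 for *Ajuba* (adjusted p = 0.024 and 0.0045), not called because they stayed under the fold limit.

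Without a fold limit 2 paralogs and 2 other targets were lower in K+-free medium, and between the treatments 1 upstream gene was higher, 7 were lower and 2 other targets were lower. With a limit of 1.5, 2 of the 9 genes were higher with ouabain, 3 in K+-free medium and 1 between the treatments. At this limit *Ccn2* and *Ankrd1* stayed called lower in both treatments. That limit left 1 upstream gene higher with ouabain, 2 in K+-free medium and 1 lower between the treatments, 1 paralog lower with ouabain, 2 higher in K+-free medium and 0 higher and 0 lower between them, and 2, 3 and 3 other targets higher.

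Leaving out each array in turn ended the *Ccn1* call with ouabain without the second ouabain array (0.23) and the *Wwtr1* call in K+-free medium without the second K+-free array (0.26), and, of the other named genes, those of *Limd1* in K+-free medium without the third K+-free array (0.26) and *Taok3* with ouabain without the first control array (-0.25); the counts of the 9 genes stayed within 1.5 times. Other targets lower between the treatments numbered 0 to 2, at 1 without the third ouabain array and 2 without the second K+-free array. Differences near 0 changed sign: *Ajuba* with ouabain from -0.025 to 0.035, and between the treatments *Yap1* from -0.041 to 0.018, *Ccn1* from -0.031 to 0.11 and *Ccn2* from -0.071 to 0.11. The causes of these changes were not tested. Same-numbered arrays of different groups had correlations of their deviations from -0.05 to 0.31, and 5 of the 9 were at or below 0.1. Arrays of different number had -0.28 to 0.16. The highest values, 0.31 and 0.23, joined the third and the second arrays of ouabain and K+-free medium. The labels name no pairs and the main fit took none, but whether the numbers mark shared experiments was not settled. With a replicate block the 9 genes still gave 6 higher and 2 lower against control, and the adjusted p of *Ccn1* with ouabain was 0.0056. The limit of precision is 3 arrays per group, and *Vgll2*, *Ankrd23* and the control values of *Ankrd2* lay below the array medians.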
